A study of Mus musculus with 40 samples.

Results

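Mitosis and kinetochore genes are described here as a set of 58 genes, found by their symbols among the 55487 genes of the count table. The list was drawn up from what the encoded proteins do, but with earlier results of these data known. It holds cyclins, kinases and phosphatases that carry a cell into mitosis, the chromosomal passenger complex, the centromere and the kinetochore, and the spindle assembly checkpoint. It also holds genes of sister chromatid cohesion and its release, condensin, spindle motors, the midzone and cytokinesis, and 3 transcription factors. When a cell divides, cyclin B bound to Cdk1 starts mitosis, chromosomes condense, and microtubules of the spindle attach to each chromosome at the kinetochore, a protein assembly built on the centromere. The spindle assembly checkpoint delays the separation of sister chromatids until every kinetochore is attached, after which the anaphase-promoting complex marks cyclin B and securin for degradation. Most of these genes are transcribed from G2 into mitosis in dividing cells and are silent in cells that have left the cycle, such as neurons, whereas glial progenitors and young astrocytes can divide.

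Both cell types came from mouse embryonic stem cells (ES cells), a non-commercial line from B6.Cg-Tg(Hlxb9-GFP)1Tmj/J mice, in which the promoter of Hlxb9, also named Mnx1 or Hb9, drives a green fluorescent protein in motor neurons. ES-astrocytes are astrocyte-like cells differentiated from embryoid bodies that had received retinoic acid and smoothened agonist. They were expanded over several passages with the mitogens EGF and FGFb, which were then withdrawn, and received forskolin for 5 days before any stimulus. All their media held serum. Fluorescent ES-motor neurons, sorted from embryoid bodies without these steps, were grown on them afterwards. The paper fixed co-cultures for imaging 24 h later and does not state when cells were sorted for sequencing. What these culture steps add to the levels below was not tested. The ES-astrocytes had either received no stimulus (control) or been exposed for 24 h to IL-1α with TNF-α, C1Q with C5, IL-1β with IL-6, or TGF-β2, so that the ES-motor neurons differ in the astrocytes below them. Each of the 5 treatments gave 4 ES-astrocyte and 4 ES-motor neuron libraries, named replicates A to D, from about 200 sorted cells each, or 40 libraries in all. The sort tells the cell types apart by the fluorescence alone, so that the ES-astrocyte libraries may hold any cell without it.

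Control ES-astrocyte replicates A to D held 7866943, 13384392, 2848750 and 6467280 counts, and control ES-motor neuron replicates A to D held 1280778, 19717324, 240859 and 2383502. Over all treatments, ES-astrocyte libraries held 1510823 to 16054290 counts and ES-motor neuron libraries 6557 to 19717324. The 9 libraries with under 20% of the median total of 2459460.5 counts were all of ES-motor neurons: the 4 with IL-1α and TNF-α (112775 to 445874 counts), C1Q and C5 replicate A (6557), IL-1β and IL-6 replicates B (80315) and D (146775), TGF-β2 replicate A (283205), and control replicate C. Levels are given in CPM, with library sizes scaled by the trimmed mean of M-values over the 40 libraries. For a count of 0 the limit is 3 counts, or 0.230 to 2.04 CPM in an ES-astrocyte library and 0.153 to 203 CPM in an ES-motor neuron library. No molecular identifiers were used, so that these limits and all intervals cover counting error only. Genes were compared by edgeR and called where the adjusted p was at most 0.05 and the log2 fold change above 1 in size. A negative log2 fold change is lower in ES-motor neurons, and SE is its standard error. Where ES-motor neurons held 0 to 3 counts, the fold is that of summed scaled counts, for 0 as a bound with 3 counts over the group and otherwise with a 95% Clopper-Pearson interval, and medians are also given with these bounds and ratios. Single libraries are named by cell type and letter, such as motor neuron B, and are controls unless a stimulus is named, and a value given as without a library leaves it out. Control libraries and those with IL-1α and TNF-α carry plate index 1 and all others plate index 2, and the index primers differ between the cell types, so that primer and cell type cannot be told apart.

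The labels were checked against marker genes. *Mnx1* lay at 319.9 to 4015 CPM in the 20 ES-motor neuron libraries and at 0 to 21.3 CPM in ES-astrocytes. Of 12 astrocyte markers, *Gfap*, *Aqp4* and *Aldh1l1* had no counts in any of the 20 ES-astrocyte libraries and *S100b* had 4 counts in 1 library. Summed over the 12 markers, control ES-astrocyte replicates A to D were at 695, 2859, 2338 and 2789 CPM, with *Fabp7* the most abundant in each, and control ES-motor neuron replicates A to D at 602, 214, 200.1 and 467 CPM, with *Sox9* the most abundant. *Sox9* was thus not lower in ES-motor neurons, with a median of 273 CPM over 20 libraries against 76.8 CPM in ES-astrocytes. These 4 were at or near 0, whereas *Slc1a2* and *Glul* were counted in all 20 ES-astrocyte libraries (medians 107 and 43.6 CPM), and the name ES-astrocytes is kept as the labels give it.

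The ES-astrocyte libraries also held genes of other cells. The 10 progenitor markers summed to 783, 650.1, 987 and 676 CPM in control ES-astrocyte replicates A to D and to 539.8, 521, 673 and 545 CPM in control ES-motor neuron replicates A to D, with *Vim* the most abundant in all 8. The 10 markers of fibroblasts or mesenchyme summed to 1404, 1226, 781 and 408 CPM in control ES-astrocyte replicates A to D, led by *Acta2* or *Dcn*, and to 0.906, 6.91, 0 and 0.955 CPM in control ES-motor neurons, while *Lum* was counted in 2 and *Pdgfra* in 1 of the 20 ES-astrocyte libraries. The 12 neuronal markers, led by *Tubb3*, *Stmn2* or *Gap43*, summed to 2728, 4707, 3415 and 4172 CPM in control ES-astrocytes and to 15238, 14495, 16239.8 and 18823 CPM in control ES-motor neurons, where *Gap43* led. Markers of microglia reached 15.99 CPM and those of pluripotent cells 5.02 CPM in any ES-astrocyte library, and *Pou5f1* was at 0 in all 40. How far progenitors, mesenchymal cells or neurons among the sorted cells contribute to the levels below was not tested, and in such bulk samples fewer dividing cells and less RNA per cell cannot be told apart.

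Summed over the 58 genes, the 4 control ES-astrocyte libraries were at 6908, 7810.2, 7841 and 7868 CPM and the 4 control ES-motor neuron libraries at 778, 837, 693 and 598 CPM (replicates A to D). Over the 16 stimulated libraries the sum was 4005 to 7190 CPM in ES-astrocytes (median 5477) and 421 to 743 CPM in ES-motor neurons (median 579). Between 53 and 58 of the 58 genes were detected in each ES-astrocyte library. In ES-motor neurons it was 6 in the library of 6557 counts and 39 in the 2 deepest, control replicate B and IL-1β and IL-6 replicate A, but did not follow depth throughout, with 36 in control replicate A (1280778 counts) and 23 in IL-1β and IL-6 replicate C (6033138). *Bub3* made up 33.3% to 70.2% of the sum in ES-motor neurons (median 52.7%) and 3.32% to 12.5% in ES-astrocytes (median 8.21%).

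**Figure D1:**
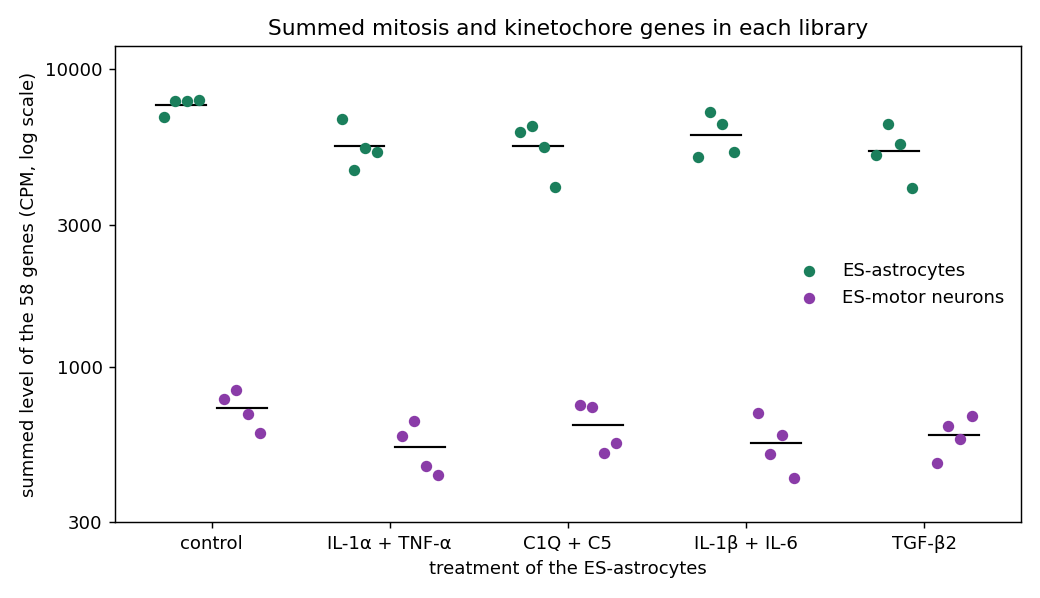
Summed level of the 58 mitosis and kinetochore genes in each library, in CPM on a log axis, by the treatment of the ES-astrocytes; points are libraries A to D from left to right and bars are group means. ES-astrocyte libraries lie at 4005 to 7868 CPM and ES-motor neuron libraries at 421 to 837 CPM.

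The control libraries show how these genes differ between the cell types without a stimulus. Of the 58 genes, 52 passed the filter on low counts, and 31 of them were called lower in ES-motor neurons and none higher by edgeR, against 1.67% of all 10199 genes tested called lower and 0.569% called higher. Among the 52, 45 had an unadjusted p under 0.05 (10.6% of all genes), and DESeq2 called 42 of the 57 to which it gave an adjusted p, all lower. Over all genes DESeq2 called 763 of the 17737 with a p, adjusted or not. With 0 taken as 0, 41 of the 52 had CPM groups without overlap, all lower in ES-motor neurons, against 6.26% of all genes tested lower and 4.46% higher. All 52 had a negative log2 fold change, with a median of -5.09, against -0.20 over all genes tested. A gene that passed the filter through its ES-astrocyte level alone had to differ, so that these counts describe the set and are no further support. The count was 18 without ES-motor neuron replicate B, the deepest, 17 without replicate C, the shallowest, 22 to 34 without 1 of the ES-astrocyte libraries, 17 to 34 over all 8 left out in turn, and 7 with the replicate letter as a block.

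The 32 stimulated libraries, none of which is in the fit of the control libraries, were compared between the cell types with the treatment as a term. The letters A to D recur with each stimulus and in both cell types, which were grown together, but the fit took the 32 libraries as independent. Its p-values do not allow for any source that libraries of the same letter share. All 58 genes were tested, and 53 were called lower in ES-motor neurons and none higher by edgeR, against 8.81% of 12507 genes tested called lower and 3.47% called higher. Of the 58, 56 had an unadjusted p under 0.05 (24.5% of all genes). DESeq2 gave an adjusted p to all 58 and called 53, and over all genes it called 1489 of the 22688 with a p, adjusted or not. With 0 taken as 0 even where its limit is up to 203 CPM, the groups did not overlap for 27 of the 58, all lower in ES-motor neurons, against 0.888% of all genes tested lower and 0.128% higher. Of the 58, 5 had no counts and 5 had 1 to 3 counts in the stimulated ES-motor neurons. Here too a gene that passed the filter through its ES-astrocyte level alone had to differ, so that these counts describe the set and are no further support. The median log2 fold change was -5.87 (-5.86 with bounds and ratios) over the 58 genes and -0.11 over all genes tested, a value that moved by -0.12 with RLE scaling and was 0.73 over the genes DESeq2 tested. With RLE scaling 55 of the 58 were called lower. Within plate 1 (IL-1α and TNF-α), a setting chosen after seeing the data, 33 were called lower, and within plate 2 (the other 3 stimuli) 52. The genes not called were *Plk4*, *Bub3*, *Espl1*, *Pttg1* and *Kif20a*.

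**Figure D2:**
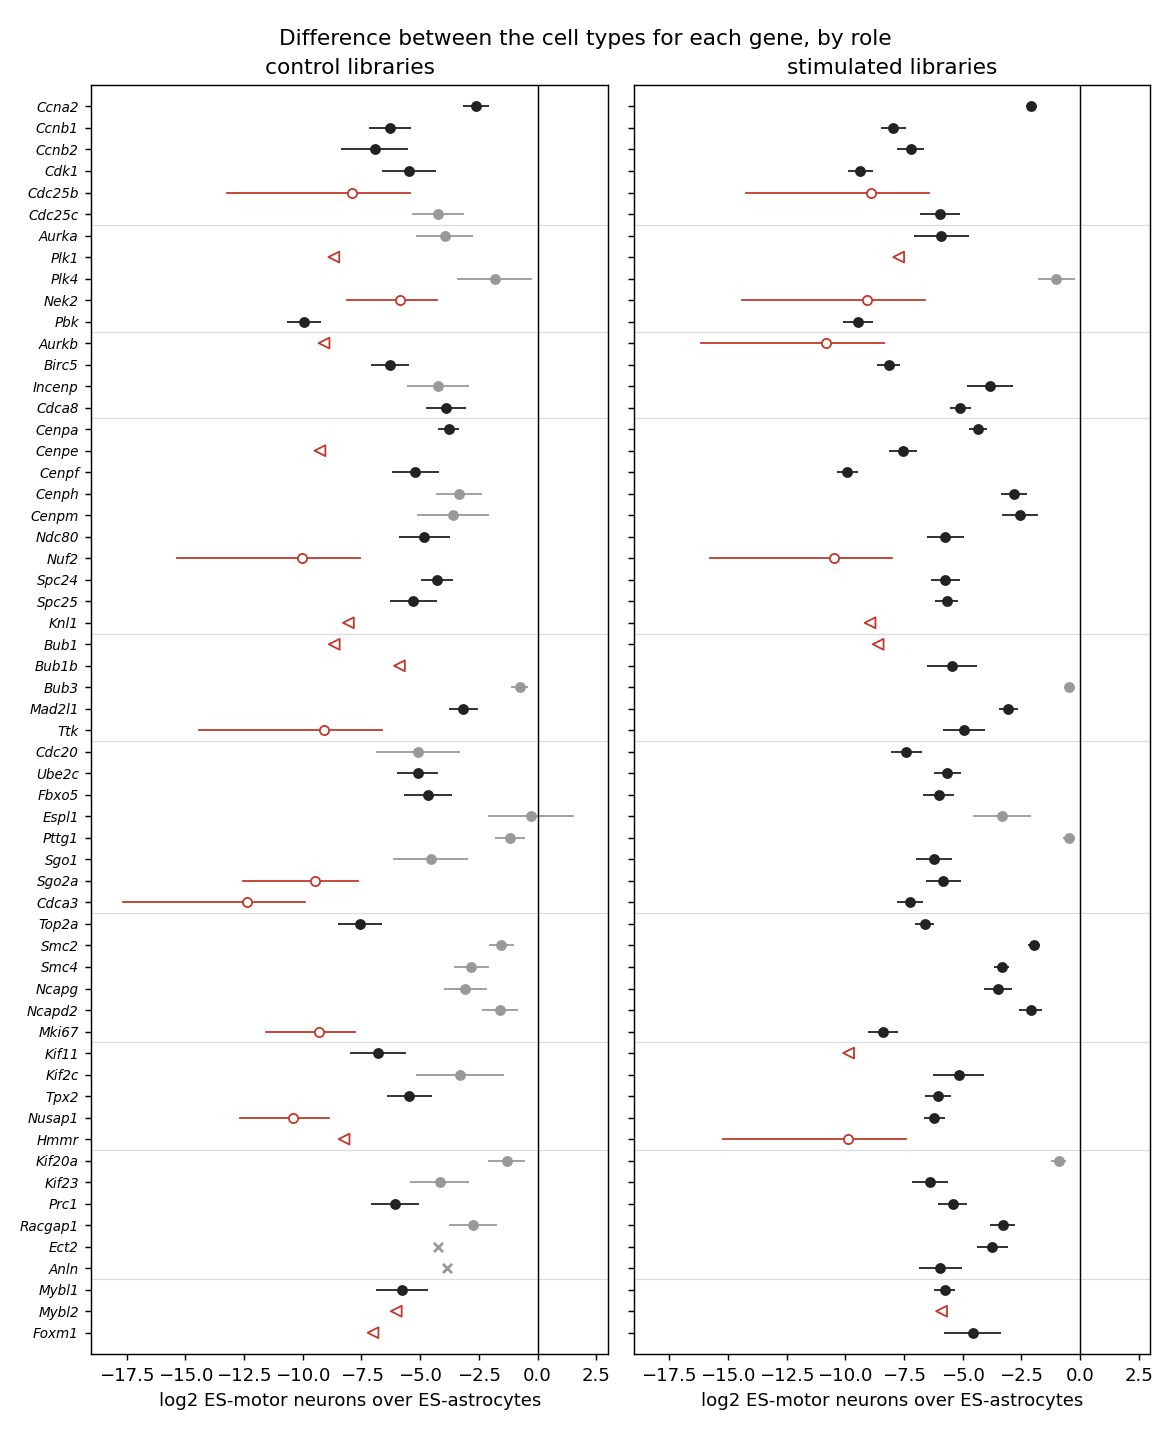
Difference between ES-motor neurons and ES-astrocytes on the log2 scale for each of the 58 genes, ordered by role, in the control libraries (left) and the stimulated libraries (right). Filled circles are edgeR estimates with SE (black, called; grey, not called), triangles bounds for 0 counts, open circles ratios from 1 to 3 counts with 95% intervals, and crosses ratios of genes not tested.

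Entry into mitosis is driven by Cdk1 with cyclins A2, B1 and B2 and by the Cdc25 phosphatases, which remove inhibitory phosphates from it. Of these genes 4 of 6 tested were called lower in control ES-motor neurons (1 without astrocyte B or motor neuron C or D and 2 without astrocyte C or D or motor neuron A) and 6 of 6 in the stimulated libraries, with median log2 fold changes of -5.88 and -7.50 (-7.58 with bounds and ratios). *Cdk1* was at 205, 67.1, 194 and 39.1 CPM in control ES-astrocytes and at 0, 7.21, 0 and 0 CPM in control ES-motor neurons (A to D). *Cdk1* had a log2 fold change of -5.48 (SE 1.16, adjusted p = 0.0329). *Cdk1* was not called without astrocyte B or C or motor neuron A, C or D (adjusted p = 0.0529 to 0.141, and 3.82e-05 to 0.141 over all settings). With the stimuli, *Cdk1* was at 47.2 to 185 CPM with a median of 104 over 16 ES-astrocyte libraries and at 0 to 5.92 CPM with a median of 0 over 16 of ES-motor neurons. *Cdk1* had a log2 fold change of -9.37 (SE 0.53, adjusted p = 2.24e-17).

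*Ccnb1*, cyclin B1, which activates Cdk1 at the start of mitosis, was at 282, 121, 218 and 189.6 CPM in control ES-astrocytes and at 0, 1.53, 11.5 and 3.34 CPM in control ES-motor neurons (A to D). The groups lay far apart, and the highest ES-motor neuron value, in replicate C, came from 3 counts. *Ccnb1* had a log2 fold change of -6.28 (SE 0.88, adjusted p = 0.00562) in the control libraries, and *Ccnb1* was called whichever of the 8 libraries was left out. With the stimuli, *Ccnb1* was at 25.7 to 244 CPM with a median of 128 over 16 ES-astrocyte libraries and at 0 to 5.92 CPM with a median of 0 over 16 of ES-motor neurons. *Ccnb1* had a log2 fold change of -7.95 (SE 0.52, adjusted p = 1.59e-15).

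The mitotic kinases comprise Plk1 and Aurka, which act at centrosomes and spindle poles, Plk4, which starts the duplication of centrioles, Nek2, which acts in centrosome separation, and Pbk. Of these genes 2 of 4 tested were called lower in control ES-motor neurons (1 without motor neuron A, B, C or D) and 4 of 5 in the stimulated libraries, with median log2 fold changes of -6.95 (-6.32 with bounds and ratios) and -7.49 (-7.73 with bounds and ratios). *Plk1* was at 136, 11.1, 20.1 and 17.7 CPM in control ES-astrocytes (A to D) and at 0 in all 4 control ES-motor neuron libraries. ES-astrocyte replicate A alone held most of these counts. *Plk1* was at least 409.8-fold lower (at least 109.8 without astrocyte A and at least 61.6 without motor neuron B, adjusted p = 0.0284). *Plk1* was not called without motor neuron A, B, C or D (adjusted p = 0.0647 to 0.0922, and 1.16e-07 to 0.141 over all settings). With the stimuli, *Plk1* was at 0 to 42.2 CPM with a median of 14.2 over 16 ES-astrocyte libraries and at 0 in all 16 ES-motor neuron libraries. *Plk1* was at least 212-fold lower (at least 132 without motor neuron IL-1β and IL-6 A, adjusted p = 0.000108).

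*Pbk* was at 458, 195, 354 and 414 CPM in control ES-astrocytes and at 0.906, 0.358, 0 and 0 CPM in control ES-motor neurons (A to D). The gap between the groups was wide, and 8 counts were all that the 4 ES-motor neuron libraries held. Its log2 fold change of -9.95 (SE 0.73, adjusted p = 5.98e-05) had the smallest adjusted p of the 52 genes, and in the stimulated libraries it was -9.45 (SE 0.63, adjusted p = 2.13e-15). *Plk4* was among the 5 genes not called in the stimulated libraries, with -1.02 (SE 0.78, adjusted p = 0.496). *Nek2* did not pass the filter in the control libraries, with 217 counts against 3 (p = 0.143, exact two-sided permutation test of the CPM, n = 4 against 4).

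The chromosomal passenger complex joins the kinase Aurora B (*Aurkb*) to its scaffold Incenp, survivin (*Birc5*) and borealin (*Cdca8*), and corrects faulty attachments of microtubules to kinetochores. Of these genes 3 of 4 tested were called lower in control ES-motor neurons and 4 of 4 in the stimulated libraries, with median log2 fold changes of -5.27 and -6.62. *Aurkb* was at 128, 29.9, 93.2 and 49.7 CPM in control ES-astrocytes (A to D) and at 0 in all 4 control ES-motor neuron libraries. *Aurkb* was at least 547-fold lower (at least 342 without astrocyte A and at least 82.2 without motor neuron B, adjusted p = 0.00644). With the stimuli, *Aurkb* was at 0 to 121 CPM with a median of 36.2 over 16 ES-astrocyte libraries and at 0 to 5.92 CPM with a median of 0 over 16 of ES-motor neurons. *Aurkb* was 1829-fold lower (1 count, 95% interval 328 to 72243, at least 607 without motor neuron IL-1α and TNF-α A and 1137 without motor neuron IL-1β and IL-6 A, adjusted p = 2.43e-10). *Birc5*, which docks the complex at centromeres, was at 49.5 to 305 CPM with a median of 180.5 in the stimulated ES-astrocytes and at 0 to 11.3 CPM with a median of 0 in the stimulated ES-motor neurons. *Birc5* had a log2 fold change of -8.14 (SE 0.49, adjusted p = 1.02e-16).

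The 10 genes of the centromere and kinetochore range from Cenpa, the histone H3 variant that marks centromeric chromatin, through Cenph and Cenpm of the inner kinetochore, to Knl1, the 4 subunits of the microtubule-binding Ndc80 complex, and Cenpe and Cenpf at the outer surface. Of these genes 8 of 10 tested were called lower in control ES-motor neurons (3 without motor neuron B and 5 without astrocyte C or D or motor neuron C) and 10 of 10 in the stimulated libraries, with median log2 fold changes of -5.02 and -5.73. *Cenpa* was at 329.6, 312, 565 and 349.8 CPM in control ES-astrocytes and at 32.6, 22.05, 11.5 and 40.6 CPM in control ES-motor neurons (A to D). It was counted in every control library, and the lowest ES-astrocyte value was several times the highest of ES-motor neurons. *Cenpa* had a log2 fold change of -3.79 (SE 0.46, adjusted p = 0.00284).

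*Cenpe*, a kinesin that moves chromosomes to the spindle equator, was at 43.2, 115, 54.1 and 86.4 CPM in control ES-astrocytes (A to D) and at 0 in all 4 control ES-motor neuron libraries. *Cenpe* was at least 617-fold lower (at least 92.7 without motor neuron B, adjusted p = 0.00383). With the stimuli, *Cenpe* was at 37.7 to 159.6 CPM with a median of 92.7 over 16 ES-astrocyte libraries and at 0 to 3.69 CPM with a median of 0 over 16 of ES-motor neurons. *Cenpe* had a log2 fold change of -7.54 (SE 0.58, adjusted p = 1.53e-13). *Ndc80* was at 37.1, 34.6, 88.8 and 46.8 CPM in control ES-astrocytes and at 3.62, 2.56, 0 and 0 CPM in control ES-motor neurons (A to D). Every ES-astrocyte library lay above every ES-motor neuron library. *Ndc80* had a log2 fold change of -4.83 (SE 1.08, adjusted p = 0.0425). *Ndc80* was not called without astrocyte B, C or D or motor neuron A, B, C or D (adjusted p = 0.0718 to 0.148, and 2.70e-06 to 0.215 over all settings). With the stimuli, *Ndc80* was at 1.004 to 65.5 CPM with a median of 35.1 over 16 ES-astrocyte libraries and at 0 to 4.80 CPM with a median of 0 over 16 of ES-motor neurons. *Ndc80* had a log2 fold change of -5.73 (SE 0.77, adjusted p = 2.50e-07).

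*Knl1*, the scaffold on which checkpoint proteins gather, was at 36.4, 19.4, 71.6 and 43.9 CPM in control ES-astrocytes (A to D) and at 0 in all 4 control ES-motor neuron libraries. *Knl1* was at least 266-fold lower (at least 40.1 without motor neuron B, adjusted p = 0.0130). *Knl1* was not called without motor neuron B (adjusted p = 0.0509, and 3.06e-12 to 0.142 over all settings). With the stimuli, *Knl1* was at 5.06 to 60.98 CPM with a median of 27.7 over 16 ES-astrocyte libraries and at 0 in all 16 ES-motor neuron libraries. *Knl1* was at least 492-fold lower (at least 306 without motor neuron IL-1β and IL-6 A, adjusted p = 7.53e-09). *Cenpf* had the smallest adjusted p of the 58 genes in the stimulated libraries, where it was at 72.5 to 216 CPM with a median of 116 in ES-astrocytes and at 0 to 0.343 CPM with a median of 0 in ES-motor neurons. *Cenpf* had a log2 fold change of -9.91 (SE 0.46, adjusted p = 3.89e-20).

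The checkpoint genes are *Bub1*, *Bub1b*, *Bub3*, *Mad2l1* and *Ttk*. Of these genes 2 of 3 tested were called lower in control ES-motor neurons (1 without astrocyte B, C or D or motor neuron A, B or C) and 4 of 5 in the stimulated libraries, with median log2 fold changes of -3.16 and -4.94. *Bub1*, a kinase recruited to unattached kinetochores, was at 25.9, 88.7, 35.1 and 36.2 CPM in control ES-astrocytes (A to D) and at 0 in all 4 control ES-motor neuron libraries. *Bub1* was at least 405-fold lower (at least 235 without astrocyte B and at least 60.9 without motor neuron B, adjusted p = 0.0111). With the stimuli, *Bub1* was at 3.62 to 69.7 CPM with a median of 31.7 over 16 ES-astrocyte libraries and at 0 in all 16 ES-motor neuron libraries. *Bub1* was at least 388-fold lower (at least 241 without motor neuron IL-1β and IL-6 A, adjusted p = 6.20e-09).

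*Bub3*, the adaptor that brings Bub1 and Bub1b to the kinetochore, was at 732, 446, 722 and 530.0 CPM in control ES-astrocytes and at 369, 488, 231 and 325 CPM in control ES-motor neurons (A to D). The groups overlapped, ES-motor neuron replicate B lying above ES-astrocyte replicate B. *Bub3* had a log2 fold change of -0.76 (SE 0.37, adjusted p = 0.521), not called. With the stimuli, *Bub3* was at 133 to 684 CPM with a median of 453 over 16 ES-astrocyte libraries and at 167 to 462 CPM with a median of 289.6 over 16 of ES-motor neurons. *Bub3* had a log2 fold change of -0.49 (SE 0.18, adjusted p = 0.0667), not called. *Bub1b* and *Ttk* did not pass the filter in the control libraries. *Bub1b* had 223 counts in 3 of 4 control ES-astrocyte libraries and 0 in ES-motor neurons, and *Ttk* had 689 counts against 1. For each of them p was 0.143 (exact two-sided permutation test of the CPM, n = 4 against 4).

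Of the 8 genes of cohesion and its release, Cdc20 activates the anaphase-promoting complex, Ube2c is its ubiquitin-conjugating enzyme and Fbxo5 its inhibitor, securin (*Pttg1*) holds separase (*Espl1*) inactive, the shugoshins Sgo1 and Sgo2a shield cohesin at centromeres, and Cdca3 is a trigger of mitotic entry. Of these genes 4 of 8 tested were called lower in control ES-motor neurons (2 without motor neuron B) and 6 of 8 in the stimulated libraries, with median log2 fold changes of -4.87 and -5.92. *Cdc20* was at 171, 22.1, 62.5 and 101 CPM in control ES-astrocytes and at 0.906, 0, 23.1 and 0 CPM in control ES-motor neurons (A to D). ES-motor neuron replicate C, with 6 counts, overlapped the lowest ES-astrocyte library. *Cdc20* had a log2 fold change of -5.08 (SE 1.79, adjusted p = 0.260), not called. Without ES-motor neuron replicate C it was called (adjusted p = 0.0364), and over all settings its adjusted p lay at 0.0253 to 0.578. With the stimuli, *Cdc20* was at 8.50 to 139 CPM with a median of 51.8 over 16 ES-astrocyte libraries and at 0 to 11.3 CPM with a median of 0 over 16 of ES-motor neurons. *Cdc20* had a log2 fold change of -7.40 (SE 0.66, adjusted p = 1.03e-11).

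*Cdca3* was at 196, 191, 237 and 356 CPM in control ES-astrocytes and at 0.906, 0, 0 and 0 CPM in control ES-motor neurons (A to D). *Cdca3* was 5302-fold lower (1 count, 95% interval 951 to 209455, at least 1683 without motor neuron A and 797 without motor neuron B, adjusted p = 0.000322). *Sgo2a* was at 17.6, 95.5, 35.8 and 85.9 CPM in control ES-astrocytes and at 0, 0.102, 0 and 0 CPM in control ES-motor neurons (A to D). Its 2 counts in ES-motor neurons were in replicate B. *Sgo2a* was 722-fold lower (2 counts, 95% interval 199.7 to 5969, at least 72.4 without motor neuron B, adjusted p = 0.00318).

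*Pttg1* and *Espl1* were called in neither comparison. *Pttg1* was at 91.3, 40.9, 77.8 and 62.05 CPM in control ES-astrocytes and at 11.8, 65.7, 19.2 and 18.6 CPM in control ES-motor neurons (A to D). ES-motor neuron replicate B lay within the ES-astrocyte range. *Pttg1* had a log2 fold change of -1.18 (SE 0.63, adjusted p = 0.583) in the control and -0.47 (SE 0.28, adjusted p = 0.318) in the stimulated libraries. *Espl1* was at 10.4, 4.62, 0 and 0 CPM in control ES-astrocytes and at 8.15, 1.28, 3.85 and 0 CPM in control ES-motor neurons (A to D). The ranges overlapped, with 2 ES-astrocyte libraries and 1 ES-motor neuron library at 0. Its log2 fold change in the control libraries was -0.29 (SE 1.82, adjusted p = 0.986). The sign changed without ES-astrocyte replicate A (1.04) or B (0.033) and without ES-motor neuron replicate B (0.040) or D (0.40). In the stimulated libraries *Espl1* was not among the 5 genes of smallest change.

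Topoisomerase IIα (*Top2a*) disentangles sister chromatids, the condensin subunits Smc2, Smc4, Ncapg and Ncapd2 compact them, and Mki67 coats the surface of mitotic chromosomes. Of these genes 2 of 6 tested were called lower in control ES-motor neurons (1 without motor neuron D) and 6 of 6 in the stimulated libraries, with median log2 fold changes of -2.95 and -3.42. *Top2a* was at 153, 626, 553 and 698 CPM in control ES-astrocytes and at 2.72, 4.81, 0 and 0 CPM in control ES-motor neurons (A to D). *Top2a* had a log2 fold change of -7.57 (SE 0.92, adjusted p = 0.00318). With the stimuli, *Top2a* was at 133 to 654 CPM with a median of 406 over 16 ES-astrocyte libraries and at 0 to 18.3 CPM with a median of 1.92 over 16 of ES-motor neurons. *Top2a* had a log2 fold change of -6.62 (SE 0.41, adjusted p = 2.65e-16).

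*Mki67* was at 79.9, 62.4, 126 and 105 CPM in control ES-astrocytes and at 2.72, 0, 0 and 0 CPM in control ES-motor neurons (A to D). *Mki67* was 634-fold lower (3 counts, 95% interval 217 to 3075, 95.2 without motor neuron B, adjusted p = 0.0155). *Mki67* was not called without motor neuron C or D (adjusted p = 0.0740 to 0.0756, and 4.14e-07 to 0.0756 over all settings). With the stimuli, *Mki67* was at 37.9 to 161 CPM with a median of 61.7 over 16 ES-astrocyte libraries and at 0 to 2.16 CPM with a median of 0 over 16 of ES-motor neurons. *Mki67* had a log2 fold change of -8.40 (SE 0.63, adjusted p = 7.52e-14). *Smc2* was at 68.9, 165, 144 and 132 CPM in control ES-astrocytes and at 55.2, 30.1, 73.1 and 18.1 CPM in control ES-motor neurons (A to D). ES-motor neuron replicate C lay above ES-astrocyte replicate A. It was not called in the control libraries, at -1.55 (SE 0.53, adjusted p = 0.234), and was called in the stimulated ones, at -1.97 (SE 0.27, adjusted p = 3.06e-07).

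Kif11 pushes spindle poles apart, Kif2c depolymerises microtubules at centromeres, and Tpx2, Nusap1 and Hmmr organise spindle microtubules. Of these genes 4 of 5 tested were called lower in control ES-motor neurons (2 without motor neuron C) and 5 of 5 in the stimulated libraries, with median log2 fold changes of -6.80 and -6.20. *Kif11* was at 10.6, 58.8, 122 and 94.3 CPM in control ES-astrocytes and at 0, 1.23, 0 and 0 CPM in control ES-motor neurons (A to D). *Kif11* had a log2 fold change of -6.80 (SE 1.19, adjusted p = 0.0150). *Kif11* was not called without motor neuron A, C or D (adjusted p = 0.0549 to 0.0670, and 2.33e-06 to 0.0670 over all settings). With the stimuli, *Kif11* was at 21.2 to 152 CPM with a median of 55.9 over 16 ES-astrocyte libraries and at 0 in all 16 ES-motor neuron libraries. *Kif11* was at least 927-fold lower (at least 577 without motor neuron IL-1β and IL-6 A, adjusted p = 3.90e-11).

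*Hmmr* was at 25.4, 40.8, 65.8 and 47.1 CPM in control ES-astrocytes (A to D) and at 0 in all 4 control ES-motor neuron libraries. *Hmmr* was at least 303-fold lower (at least 45.5 without motor neuron B, adjusted p = 0.00981). In the stimulated libraries it was 942-fold lower (1 count, 95% interval 169 to 37226, at least 313 without motor neuron IL-1α and TNF-α A and 586 without motor neuron IL-1β and IL-6 A, adjusted p = 2.43e-09). *Nusap1* was at 109, 239.7, 174 and 173 CPM in control ES-astrocytes and at 2.72, 0, 0 and 0 CPM in control ES-motor neurons (A to D). *Nusap1* was 1364-fold lower (3 counts, 95% interval 467 to 6617, 205 without motor neuron B, adjusted p = 0.00648).

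At the spindle midzone Prc1 bundles antiparallel microtubules, Kif20a and Kif23 bring regulators there, Racgap1 and Ect2 switch on RhoA, and Anln links the contractile ring to it. Of these genes 1 of 4 tested were called lower in control ES-motor neurons (0 without motor neuron C) and 5 of 6 in the stimulated libraries, with median log2 fold changes of -3.46 and -4.57. *Prc1* was at 100.2, 116, 70.5 and 83.8 CPM in control ES-astrocytes and at 0, 3.12, 0 and 0 CPM in control ES-motor neurons (A to D). *Prc1* had a log2 fold change of -6.07 (SE 1.02, adjusted p = 0.0131). *Prc1* was not called without motor neuron C (adjusted p = 0.0573, and 4.56e-07 to 0.0573 over all settings). With the stimuli, *Prc1* was at 18.7 to 171 CPM with a median of 86.5 over 16 ES-astrocyte libraries and at 0 to 67.6 CPM with a median of 0 over 16 of ES-motor neurons, the highest of the latter being 1 count in the library of 6557 counts. *Prc1* had a log2 fold change of -5.41 (SE 0.62, adjusted p = 5.74e-09).

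*Kif20a* was at 112, 30.5, 96.8 and 9.08 CPM in control ES-astrocytes and at 18.1, 22.4, 11.5 and 42.5 CPM in control ES-motor neurons (A to D). The groups overlapped. It was not called, at -1.33 (SE 0.78, adjusted p = 0.636). In the stimulated libraries it was at -0.92 (SE 0.34, adjusted p = 0.0624), not called, but called without replicate A of all groups (adjusted p = 0.00605), with an adjusted p of 0.00605 to 0.742 over all settings. *Ect2* and *Anln* did not pass the filter in the control libraries. The exact two-sided permutation test of the CPM gave p = 0.0286 for *Ect2*, the smallest that 4 against 4 allow, and p = 0.429 for *Anln* (0.171 and 0.514 after Benjamini-Hochberg adjustment over the 6 genes so tested).

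Foxm1 and Mybl2 drive genes of G2 and mitosis together with the MuvB complex, and Mybl1 is a relative of Mybl2. Of these genes 1 of 2 tested were called lower in control ES-motor neurons (0 without astrocyte B or D or motor neuron B, C or D and 2 without astrocyte A) and 3 of 3 in the stimulated libraries (1 without replicate B of all groups), with median log2 fold changes of -7.73 (-6.40 with bounds and ratios) and -5.76. *Foxm1* was at 9.22, 23.2, 12.1 and 19.03 CPM in control ES-astrocytes (A to D) and at 0 in all 4 control ES-motor neuron libraries. *Foxm1* was at least 129-fold lower (at least 19.3 without motor neuron B, adjusted p = 0.0532), not called. Without ES-astrocyte replicate A it was called (adjusted p = 0.0412), and over all settings the adjusted p lay at 4.46e-07 to 0.333. With the stimuli, *Foxm1* was at 0 to 26.1 CPM with a median of 5.34 over 16 ES-astrocyte libraries and at 0 to 6.71 CPM with a median of 0 over 16 of ES-motor neurons. *Foxm1* had a log2 fold change of -4.58 (SE 1.21, adjusted p = 0.00560), not called without replicate B of all groups (adjusted p = 0.0765, and 9.92e-05 to 0.0765 over all settings). *Mybl2* was counted in control ES-astrocyte replicate A alone (26.3 CPM) and in no control ES-motor neuron library (p = 1.00, exact two-sided permutation test, n = 4 against 4).

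Per kilobase of exon, which allows levels of different genes to be compared, the 5 highest of the 58 in control ES-astrocytes were *Pbk* (198 ± 64.3 CPM per kb, SD, n = 4), *Spc25* (164 ± 21.9), *Ccnb2* (164 ± 43.7), *Mybl1* (115 ± 111, and 66.4 without replicate B) and *Birc5* (90.0 ± 18.4). *Spc25* and *Ccnb2* differed by less than the SD of either. *Bub3* (86.7) and *Cdca3* (85.6) came next and lay within the SD of *Birc5*. In control ES-motor neurons the 5 highest were *Bub3* (50.4 ± 15.3 CPM per kb), *Pttg1* (14.4 ± 12.4, and 8.27 without replicate B), *Smc2* (8.06 ± 4.52), *Smc4* (7.12 ± 8.12, and 3.09 without replicate C) and *Ccna2* (6.68 ± 2.22). *Bub3* lay apart, its lowest library at 33.0 CPM per kb and the highest *Pttg1* library at 32.8, while the next 4 overlapped. Without these libraries *Mybl1* and *Smc4* each ranked 9 and *Pttg1* ranked 4. *Pbk* ranked 2, behind *Ccnb2*, without ES-astrocyte replicate A, and *Birc5* ranked 6 without ES-astrocyte replicate B or D. Such means were taken after seeing the data. The median level over the 58 genes was 16.8 CPM per kb in control ES-astrocytes and 0.379 in control ES-motor neurons.

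Other genes of the same machinery were taken from lists of their own, to be read against 1.67% of all genes tested called lower in the control and 8.81% in the stimulated libraries. Among 28 further kinetochore and centromere genes, those called lower in ES-motor neurons were 5 of 27 tested genes in the control (1 without motor neuron A, B or D, 2 without astrocyte B or motor neuron C and 3 without astrocyte C or D) and 18 of 28 in the stimulated libraries, with median log2 fold changes of -2.78 and -2.82, and *Zwint* was called higher in the stimulated libraries. *Pmf1* of the Mis12 complex was at -2.83 (SE 0.48, adjusted p = 0.0132) and *Cenpk* at -3.29 (SE 0.60, adjusted p = 0.0155) in the control libraries. *Pmf1* was not called without motor neuron A, B, C or D (adjusted p = 0.0597 to 0.0742, and 4.35e-06 to 0.0742 over all settings). *Cenpk* was not called without astrocyte B or D or motor neuron A, B, C or D (adjusted p = 0.0558 to 0.0740, and 5.06e-08 to 0.129 over all settings). *Zwint*, which tethers the motor dynein through the RZZ complex, was at 387, 530.1, 688 and 533 CPM in control ES-astrocyte replicates A to D and at 1375, 1464, 1497 and 1166 CPM in control ES-motor neurons. Every ES-motor neuron library lay above every ES-astrocyte library. Its log2 fold change in the stimulated libraries was 1.05 (SE 0.16, adjusted p = 1.95e-06), just above the threshold of 1, and 0.91 without replicate C of all groups, with an adjusted p of 2.02e-10 to 0.633 over all settings. *Pmf1* was at -2.33 (SE 0.30, adjusted p = 1.18e-07) there.

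Of 24 further spindle, motor and cytokinesis genes, those called lower were 8 of 16 tested genes in the control (2 without astrocyte B, C or D or motor neuron A, C or D and 3 without motor neuron B) and 21 of 22 in the stimulated libraries, with median log2 fold changes of -5.43 and -5.93 (-6.08 with bounds and ratios). In the control libraries *Ckap2l* was at least 566-fold lower (at least 85.1 without motor neuron B, adjusted p = 0.00820). *Kif18a* was at least 335-fold lower (at least 50.4 without motor neuron B, adjusted p = 0.0132). *Aspm* was at least 261-fold lower (at least 39.3 without motor neuron B, adjusted p = 0.0284). *Aspm* was not called without astrocyte B, C or D or motor neuron A, B, C or D (adjusted p = 0.0578 to 0.0932, and 8.06e-08 to 0.174 over all settings). *Kif18a* was not called without motor neuron B (adjusted p = 0.0517, and 1.26e-11 to 0.130 over all settings). With the stimuli *Kif15* was 788-fold lower (2 counts, 95% interval 218 to 6511, 1570.0 without motor neuron IL-1α and TNF-α A, 1469 without motor neuron C1Q and C5 D and 490.0 without motor neuron IL-1β and IL-6 A, adjusted p = 7.86e-12). *Ckap2* was at -4.93 (SE 0.49, adjusted p = 1.99e-10) and *Cit* at -2.98 (SE 0.32, adjusted p = 1.36e-09) there.

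Of 13 further regulators of mitotic entry, those called lower were 3 of 9 tested genes in the control (0 without motor neuron B or D and 1 without astrocyte B, C or D or motor neuron C) and 9 of 13 in the stimulated libraries, with median log2 fold changes of -3.21 and -3.90 (-4.16 with bounds and ratios). *Cdca5*, sororin, which stabilises cohesin, was at least 269-fold lower (at least 161 without astrocyte A and at least 40.5 without motor neuron B, adjusted p = 0.0172) in the control libraries. *Cdca5* was not called without motor neuron B or D (adjusted p = 0.0530 to 0.0705, and 3.81e-10 to 0.185 over all settings). *Cks1b*, a small subunit of Cdk complexes, was at -2.29 (SE 0.43, adjusted p = 0.0176). *Cks1b* was not called without astrocyte B, C or D or motor neuron A, B, C or D (adjusted p = 0.0530 to 0.103, and 4.98e-06 to 0.124 over all settings). *Melk* was 483-fold lower (3 counts, 95% interval 165 to 2344, 72.6 without motor neuron B, adjusted p = 0.0425). *Melk* was not called without astrocyte B, C or D or motor neuron B, C or D (adjusted p = 0.0670 to 0.158, and 4.62e-05 to 0.158 over all settings). In the stimulated libraries *Cks1b* was at -1.86 (SE 0.20, adjusted p = 1.25e-09). *Melk* was at least 539-fold lower (at least 335 without motor neuron IL-1β and IL-6 A, adjusted p = 3.03e-09) there. *Cdk2* was 399.9-fold lower (2 counts, 95% interval 111 to 3305, 703 without motor neuron IL-1β and IL-6 C, adjusted p = 3.03e-09) there.

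Of the 16 genes of the anaphase-promoting complex and its activators, none was called by edgeR in either comparison, with 2 and 1 at an unadjusted p under 0.05 (10.6% and 24.5% of all genes), none called by DESeq2, and medians of -0.39 and 0.072. Without replicate A of all groups 1 was called in the stimulated libraries. *Ube2s* was at -3.37 (SE 1.11, adjusted p = 0.215), *Cdc26* at -1.01 (SE 0.46, adjusted p = 0.463) and *Fzr1* at -2.91 (SE 1.34, adjusted p = 0.472) in the control libraries. In the stimulated ones *Anapc5* was at 0.58 (SE 0.25, adjusted p = 0.138), *Cdc27* at 0.36 (SE 0.23, adjusted p = 0.378) and *Ube2s* at -0.96 (SE 0.64, adjusted p = 0.401). Without replicate A of all groups *Ube2s* was called there (adjusted p = 0.0177), without replicate B its log2 fold change was 0.039, and its adjusted p lay at 0.0177 to 0.995 over all settings.

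Of 11 cohesin genes, those called lower were 1 of 11 tested genes in the control and 1 of 11 in the stimulated libraries (2 without replicate A or D of all groups and 3 without replicate B or C of all groups), with median log2 fold changes of -0.32 and -0.53, *Esco2*, the acetyltransferase of S phase, in each, a share near the 8.81% of all genes in the stimulated libraries. *Esco2* was 1322-fold lower (1 count, 95% interval 237 to 52230.1, at least 66.2 without motor neuron B, adjusted p = 0.00318) in the control libraries and at -7.20 (SE 0.74, adjusted p = 4.25e-10) in the stimulated ones. *Esco1* was at 2.26 (SE 1.15, adjusted p = 0.552) and *Rad21*, a ring subunit, at -0.86 (SE 0.47, adjusted p = 0.589) in the control libraries. *Rad21* and *Pds5a* were at -0.97 (SE 0.23, adjusted p = 0.00178) and -0.97 (SE 0.27, adjusted p = 0.00843) in the stimulated ones, under the fold threshold. *Rad21* passed it without replicate A, B or C (adjusted p 0.00247 to 0.00946, and 4.61e-06 to 0.260 over all settings). *Pds5a* passed it without replicate B or D (adjusted p 0.0284 to 0.0380, and 0.000430 to 0.742 over all settings).

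Of the 4 other condensin subunits, those called lower by edgeR were 0 of 3 tested genes in the control (1 without astrocyte B) and 2 of 4 in the stimulated libraries (1 without replicate A or B or C of all groups), with median log2 fold changes of -1.35 and -1.97, with 1 of 3 at an unadjusted p under 0.05 in the control libraries (10.6% of all genes), where DESeq2 called 2, *Ncapg2* among them. *Ncapg2* was 164-fold lower (3 counts, 95% interval 56.03 to 799.8, 96.4 without astrocyte B and 24.7 without motor neuron B, adjusted p = 0.278) in the control libraries, not called by edgeR. *Ncaph2* was at -1.35 (SE 0.72, adjusted p = 0.581) and *Ncapd3* at -1.34 (SE 1.37, adjusted p = 0.851). With the stimuli *Ncaph* was 235-fold lower (3 counts, 95% interval 80.1 to 1139, 146 without motor neuron IL-1β and IL-6 A, adjusted p = 1.07e-05). *Ncapg2* was at -3.29 (SE 1.002, adjusted p = 0.0186) there, and not called without replicate A, B or C of all groups (adjusted p 0.0521 to 0.0769, and 0.00161 to 0.257 over all settings). *Ncaph2* was at -0.66 (SE 0.48, adjusted p = 0.460). Of the 11 genes of the DREAM and MuvB complexes, which repress or activate cell cycle promoters, those called lower were 1 of 10 tested genes in the control (0 without astrocyte B or motor neuron B, C or D) and 1 of 11 in the stimulated libraries, with median log2 fold changes of -0.50 and -0.61, *Tfdp2* in each, again near 8.81% in the stimulated libraries. *Tfdp2* was at -3.55 (SE 0.64, adjusted p = 0.0160) and -3.84 (SE 0.36, adjusted p = 3.48e-11). *Tfdp2* was not called without astrocyte B or motor neuron B, C or D (adjusted p = 0.0578 to 0.0790, and 3.15e-06 to 0.0790 over all settings). *E2f5* was at -1.39 (SE 0.64, adjusted p = 0.478) and *Rbbp4* at -0.44 (SE 0.37, adjusted p = 0.805) in the control libraries. *Rbl1* was at -2.50 (SE 1.05, adjusted p = 0.114) and *Rbbp4* at -0.40 (SE 0.19, adjusted p = 0.183) in the stimulated ones.

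DNA replication comes before mitosis in the cycle. Of 22 S phase genes, those called lower in ES-motor neurons were 9 of 21 tested genes in the control (3 without motor neuron A, B or D and 4 without astrocyte C or motor neuron C) and 21 of 22 in the stimulated libraries, with median log2 fold changes of -2.98 and -2.48. *Rfc4*, which loads the clamp Pcna, was at -2.98 (SE 0.39, adjusted p = 0.00318), and *Rrm2*, a subunit of ribonucleotide reductase, at -5.72 (SE 0.88, adjusted p = 0.00820). *Cdc45* of the replicative helicase was 950.4-fold lower (1 count, 95% interval 170.3 to 37572, at least 47.6 without motor neuron B, adjusted p = 0.0121). *Cdc45* was not called without motor neuron B or D (adjusted p = 0.0525 to 0.0964, and 2.59e-08 to 0.0964 over all settings). *Rrm2*, *Mcm4* and *Pcna* were, with the stimuli, at -5.72 (SE 0.35, adjusted p = 1.65e-16), -2.47 (SE 0.30, adjusted p = 1.83e-08) and -1.39 (SE 0.19, adjusted p = 3.63e-07).

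Of 10 genes of cell cycle exit, those called lower in ES-motor neurons were 3 of 9 tested genes in the control (0 without motor neuron A or D and 1 without astrocyte C or motor neuron B or C) and 4 of 10 in the stimulated libraries, with median log2 fold changes of -1.73 and -1.08. *Btg2*, *Gadd45g* and *Cdkn1c*, which restrain proliferation, were at -3.73 (SE 0.62, adjusted p = 0.0129), -3.29 (SE 0.69, adjusted p = 0.0321) and -2.05 (SE 0.47, adjusted p = 0.0465) in the control libraries. *Btg2* was not called without motor neuron A or D (adjusted p = 0.0545 to 0.0612, and 8.63e-10 to 0.0738 over all settings). *Gadd45g* was not called without astrocyte C or motor neuron A, B, C or D (adjusted p = 0.0657 to 0.141, and 0.000284 to 0.150 over all settings). *Cdkn1c* was not called without astrocyte A, B, C or D or motor neuron A, B, C or D (adjusted p = 0.0524 to 0.174, and 0.00147 to 0.203 over all settings). *Btg2* and *Gadd45g* were, with the stimuli, at -3.01 (SE 0.37, adjusted p = 4.39e-08) and -2.08 (SE 0.39, adjusted p = 0.000101). *Cdkn2c* was 379-fold lower (1 count, 95% interval 67.9 to 14999, 241 without astrocyte IL-1α and TNF-α A and at least 78.6 without motor neuron IL-1β and IL-6 A, adjusted p = 0.000252) there.

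Since most of the 58 genes differed between the cell types in the same direction, their promoters are shown for the letters that promoters of G2 and mitosis genes are known to share. RefSeq promoters on GRCm38.p6, from 250 bases before to 50 after the start of transcription, were matched by symbol for 47 of the 58 genes, with 51 promoters. The letters TTTGAA of the cell cycle genes homology region, or TTCAAA on the other strand, were found in 34 of the 51 (66.7%) and in 17.9% of all 32851 promoters of the table. The CCAAT box, or ATTGG on the other strand, was found in 40 of the 51 (78.4%) and in 37.4% of all. Both stood in 30 of the 51 (58.8%) and in 6.95% of all, and the matches overlapped each other in 1 of the 51. The 4 sequences printed here are those of *Cdk1* and *Plk1*, called in both comparisons, and of *Bub3* and *Pttg1*, called in neither. Each is written from 5′ to 3′ on the strand of the gene, with the matches to these letters in capitals.
Cdk1 (chr10:69352863-69353162, minus strand): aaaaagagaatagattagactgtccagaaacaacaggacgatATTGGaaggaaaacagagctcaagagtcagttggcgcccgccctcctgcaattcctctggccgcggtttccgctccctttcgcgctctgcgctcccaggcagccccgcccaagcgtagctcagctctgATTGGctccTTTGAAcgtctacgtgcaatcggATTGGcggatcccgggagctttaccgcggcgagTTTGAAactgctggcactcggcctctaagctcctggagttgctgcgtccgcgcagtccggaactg
Plk1 (chr7:122159185-122159484, plus strand): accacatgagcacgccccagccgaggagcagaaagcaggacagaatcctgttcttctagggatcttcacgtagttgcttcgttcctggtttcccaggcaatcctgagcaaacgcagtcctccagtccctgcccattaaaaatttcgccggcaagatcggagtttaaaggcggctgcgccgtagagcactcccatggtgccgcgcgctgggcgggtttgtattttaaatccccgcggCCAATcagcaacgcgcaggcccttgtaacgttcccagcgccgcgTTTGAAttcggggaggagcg
Bub3 (chr7:131560120-131560419, plus strand): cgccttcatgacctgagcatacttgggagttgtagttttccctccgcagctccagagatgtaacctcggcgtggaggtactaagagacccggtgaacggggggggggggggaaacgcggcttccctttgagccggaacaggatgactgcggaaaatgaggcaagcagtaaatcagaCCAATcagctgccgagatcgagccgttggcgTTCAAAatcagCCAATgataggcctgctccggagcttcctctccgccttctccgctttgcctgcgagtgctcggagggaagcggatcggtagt
Pttg1 (chr11:43425932-43426231, minus strand): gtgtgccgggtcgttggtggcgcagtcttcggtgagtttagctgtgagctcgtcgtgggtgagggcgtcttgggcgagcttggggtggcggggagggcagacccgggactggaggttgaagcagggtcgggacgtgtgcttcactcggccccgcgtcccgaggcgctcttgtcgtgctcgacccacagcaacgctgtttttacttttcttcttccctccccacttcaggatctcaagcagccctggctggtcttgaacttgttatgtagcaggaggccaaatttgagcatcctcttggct
*Bub3*, although not called, holds both kinds of match, and the *Pttg1* window holds neither, as do 7 of the 47 genes. That window lies wholly within *Pttg1* as GENCODE M21 places it (chr11:43420250-43426251), since the RefSeq start used is downstream of the 5′ end given there. The stretch before that 5′ end was not searched. A match describes the letters only, and a window without them says nothing about other stretches.

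The stimuli were compared with the control within each cell type to ask whether the 58 genes move with the treatment of the ES-astrocytes. The 4 comparisons of a cell type share their control libraries, and control and IL-1α with TNF-α are on plate 1, so that for the other 3 stimuli plate and stimulus cannot be told apart. Summed over the 58 genes, ES-astrocyte replicates A to D were at 6826, 4577, 5464 and 5271 CPM with IL-1α and TNF-α, at 6142, 6443, 5489 and 4016 CPM with C1Q and C5, at 5071, 7189.7, 6548 and 5261 CPM with IL-1β and IL-6, and at 5148, 6553, 5633 and 4005 CPM with TGF-β2, against 6908, 7810.2, 7841 and 7868 CPM in the control. Of the 16 stimulated libraries 15 lay below the lowest control library, IL-1β and IL-6 replicate B being the exception. With settings chosen after seeing the data the number was 13 without *Bub3*, 15 without *Mybl1*, 13 with library totals in place of the scaled sizes and 16 with RLE scaling. The 22 S phase genes gave 15 of 16 as well. Astrocyte markers summed to 695 to 2859 CPM in the control libraries (median 2563) and to 839 to 2853 CPM in the stimulated ones (median 1502), markers of mesenchyme to 408 to 1404 CPM (median 1003) and 205 to 1268 CPM (median 548), progenitor markers to 650 to 987 CPM (median 729) and 515 to 1155 CPM (median 704), and neuronal markers to 2728 to 4707 CPM (median 3793.5) and 3162 to 6449 CPM (median 4519). Their part in the lower sums was not tested.

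With IL-1α and TNF-α, 57 of the 58 genes passed the filter and none was called by edgeR, as for 0% of all 10444 genes called lower and 0% called higher. At an unadjusted p under 0.05 there were 2 of the 57, against 0.89% of all genes tested, and DESeq2 called none of the 55 to which it gave an adjusted p and 21 genes in all. The log2 fold change was negative for 47 of the 57, with a median of -0.43 against -0.079 over all genes tested, where negative values thus also prevailed. The groups did not overlap for 3 lower and 1 higher, against 0.948% of all genes lower and 0.929% higher. *Spc25*, a subunit of the Ndc80 complex, was at 345, 238, 250.4 and 184 CPM in replicates A to D with IL-1α and TNF-α, against 562, 517, 428 and 586 CPM in the control. All 4 stimulated libraries lay below all 4 controls. Its log2 fold change of -1.005 (SE 0.30, unadjusted p = 0.00632, adjusted p = 1.00) did not pass the correction. *Birc5* (survivin) was at 219, 182, 179 and 157 CPM, overlapping the control at 218, 334, 309.8 and 362 CPM through control replicate A, with -0.69 (SE 0.29, unadjusted p = 0.0356, adjusted p = 1.00). *Ccnb1* was at 99.99, 150.0, 114 and 109 CPM, with -0.74 (SE 0.35, unadjusted p = 0.0583, adjusted p = 1.00). It overlapped the control through control replicate B. *Cenpa* and *Cdc25c* were also lower in all 4 libraries, and *Bub1b* was higher in all 4, named after their values were seen.

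With C1Q and C5, 57 of the 58 genes passed the filter and none was called by edgeR, as for 0% of all 10865 genes called lower and 0% called higher. At an unadjusted p under 0.05 there were 2 of the 57, against 0.976% of all genes tested, and DESeq2 called none of the 58, all of which had an adjusted p, and 37 genes in all. The log2 fold change was negative for 48 of the 57, with a median of -0.38 against -0.069 over all genes tested, where negative values thus also prevailed. The groups did not overlap for 3 lower, against 0.985% of all genes lower and 0.92% higher. *Spc25* was at 254, 345, 294 and 172 CPM in replicates A to D, all below the control, with -0.94 (SE 0.35, unadjusted p = 0.0198, adjusted p = 1.00). *Pbk* was at 134, 270.0, 163 and 99.1 CPM, with -1.06 (SE 0.43, unadjusted p = 0.0294, adjusted p = 1.00). Its replicate B reached into the control range. *Cdc25c*, the phosphatase that activates Cdk1, was at 43.9, 24.97, 65.4 and 8.81 CPM against 66.97, 71.1, 166 and 74.05 CPM, with -1.39 (SE 0.65, unadjusted p = 0.0538, adjusted p = 1.00), and the groups did not overlap. *Cenpa* was likewise lower in all 4 libraries, a gene named after its values were seen.

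With IL-1β and IL-6, 56 of the 58 genes passed the filter and none was called by edgeR, as for 0% of all 10240 genes called lower and 0% called higher. At an unadjusted p under 0.05 there were 1 of the 56, against 1.16% of all genes tested, and DESeq2 called none of the 57 to which it gave an adjusted p and 56 genes in all. The log2 fold change was negative for 47 of the 56, with a median of -0.48 against -0.074 over all genes tested, where negative values thus also prevailed. The groups did not overlap for 1 lower, against 0.957% of all genes lower and 0.879% higher. *Plk1* was at 1.36, 2.02, 0 and 3.93 CPM in replicates A to D, against 136, 11.1, 20.1 and 17.7 CPM in the control. Every stimulated library lay below every control, and control replicate A stood far above the other 3. Its log2 fold change was -4.69 (SE 1.53, unadjusted p = 0.0116, adjusted p = 1.00), with an adjusted p of 0.0508 to 1.00 over all settings. *Sgo1*, a protector of centromeric cohesin, was at 29.3, 10.3, 21.4 and 17.2 CPM against 22.3, 83.8, 66.5 and 35.99 CPM, with -1.40 (SE 0.67, unadjusted p = 0.0635, adjusted p = 1.00). *Birc5* was at 174, 235, 188 and 221 CPM, with -0.56 (SE 0.31, unadjusted p = 0.0953, adjusted p = 1.00). Both overlapped the control.

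With TGF-β2, 58 of the 58 genes passed the filter and none was called by edgeR, as for 0% of all 10794 genes called lower and 0% called higher. At an unadjusted p under 0.05 there were 2 of the 58, against 1.26% of all genes tested, and DESeq2 called none of the 57 to which it gave an adjusted p and 58 genes in all. The log2 fold change was negative for 48 of the 58, with a median of -0.35 against -0.065 over all genes tested, where negative values thus also prevailed. The groups did not overlap for 3 lower and 1 higher, against 0.963% of all genes lower and 1.32% higher. *Spc25* was at 271, 400.1, 269 and 144 CPM in replicates A to D, all below the control, with -0.90 (SE 0.35, unadjusted p = 0.0281, adjusted p = 1.00). *Pbk* was at 203, 255, 167 and 105 CPM, with -0.91 (SE 0.39, unadjusted p = 0.0404, adjusted p = 1.00), and overlapped the control. *Cenpa*, the centromeric histone, was at 288, 273, 176 and 219.9 CPM, with -0.65 (SE 0.33, unadjusted p = 0.0757, adjusted p = 1.00), and did not overlap. *Cdca3* was also lower and *Bub1b* higher in all 4 libraries, genes named after their values were seen.

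**Figure D3:**
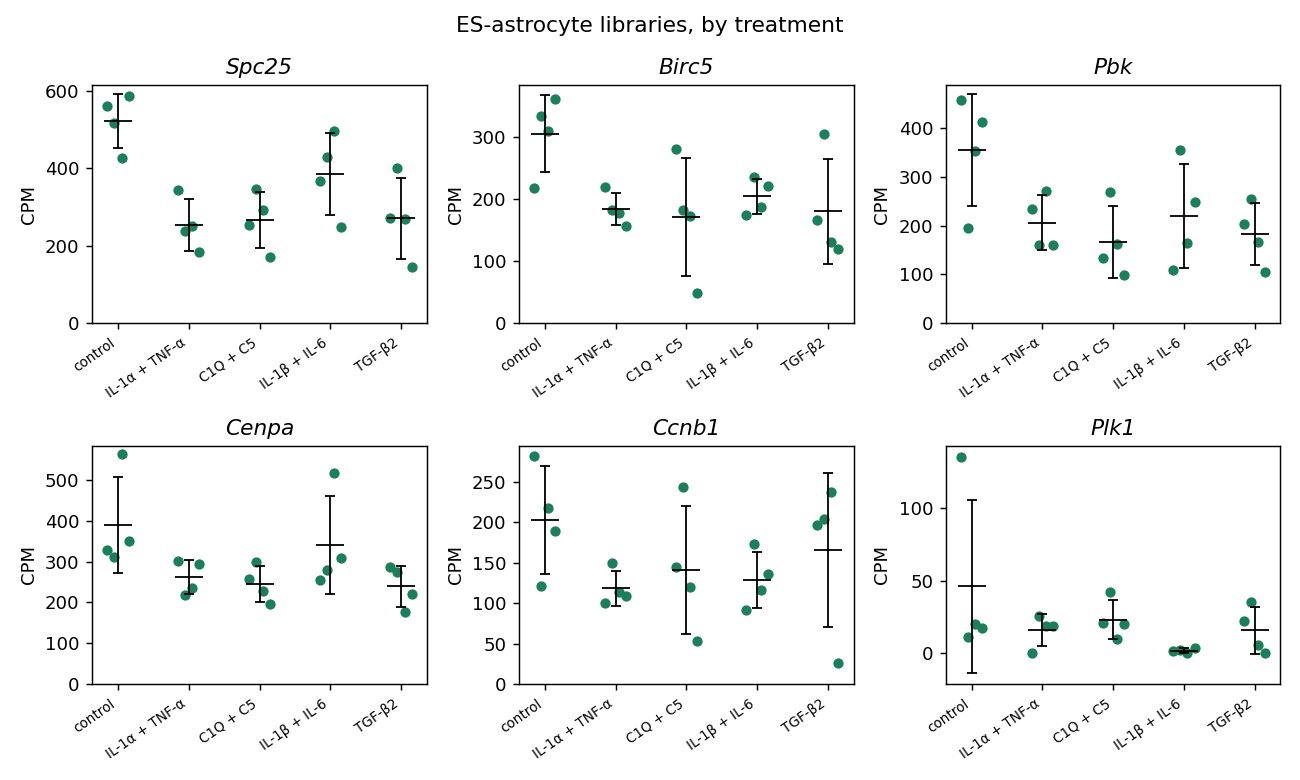
Level of Spc25, Birc5, Pbk, Cenpa, Ccnb1 and Plk1 in the ES-astrocyte libraries in CPM, by treatment; points are libraries, and lines show the mean with its SD (n = 4). The 4 control libraries of Spc25 lie at 428 to 586 CPM, above all libraries with IL-1α and TNF-α, C1Q and C5 or TGF-β2 but not above all with IL-1β and IL-6.

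In ES-motor neurons few of the genes passed edgeR's filter. DESeq2 gave an adjusted p to 44, 45, 45 and 27 of the 58 for the 4 stimuli in the order given here and called none. Of these, 2, 1, 0 and 3 had an unadjusted p under 0.05. Over all genes with a p, adjusted or not, it was 445 of 16118, 290 of 16664, 231 of 18546 and 547 of 17234, so that the shares have unlike bases. With IL-1α and TNF-α, whose 4 libraries are all shallow, only *Bub3* passed the filter, at 349, 462, 268 and 225 CPM in replicates A to D against 369, 488, 231 and 325 CPM in the control. The ranges overlapped, and the log2 fold change was 0.076 (SE 0.39, unadjusted p = 0.848, adjusted p = 0.993). Its sign changed without stimulated replicate A (-0.023) or B (-0.078) and without control replicate C (-0.0704). It was not called by edgeR or DESeq2, and edgeR called 0% of 4479 genes lower and 0% higher, with 3.19% at an unadjusted p under 0.05 and groups apart for 3.17% lower and 0.447% higher. With C1Q and C5, 11 genes were tested and none was called by edgeR or DESeq2, as for 0% of 7348 genes lower and 0% higher by edgeR, with 1 of the 11 at an unadjusted p under 0.05 against 4.38% of all. Groups were apart for none of the 11 and for 2.75% of all genes lower and 0.49% higher. The median log2 fold change was -0.1 against -0.062 over all genes. *Pttg1* was at 67.6, 84.5, 41.01 and 74.8 CPM against 11.8, 65.7, 19.2 and 18.6 CPM, with 1.15 (SE 0.56, unadjusted p = 0.0493, adjusted p = 0.997). Control replicate B lay within the stimulated range. *Smc4* and *Ncapd2* were at -0.83 (SE 0.77, unadjusted p = 0.291, adjusted p = 0.997) and -0.90 (SE 1.11, unadjusted p = 0.424, adjusted p = 0.997). For *Smc4* the sign turned without control replicate C (0.29), which held 100.1 CPM of it, the other controls 9.55 to 21.7 CPM.

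With IL-1β and IL-6, 14 genes were tested in ES-motor neurons, none called by edgeR or DESeq2 and none at an unadjusted p under 0.05, against 1.18% of all 8327 genes, of which edgeR called 0% lower and 0% higher. Groups were apart for none of the 14 and for 1.44% of all genes lower and 0.372% higher. The median was -0.45, and -0.014 over all genes. *Cenpa* was at 12.8, 0, 0 and 6.69 CPM against 32.6, 22.05, 11.5 and 40.6 CPM, the zeros being in shallow replicate B and in replicate C of 6033138 counts, with -2.23 (SE 1.13, unadjusted p = 0.0616, adjusted p = 1.00). *Mad2l1* and *Cdca8* were at -2.04 (SE 1.29, unadjusted p = 0.131, adjusted p = 1.00) and -1.74 (SE 1.204, unadjusted p = 0.163, adjusted p = 1.00). With TGF-β2, 15 genes were tested by edgeR and none was called by edgeR or DESeq2. None was at an unadjusted p under 0.05 by edgeR, and 3 of the 27 with an adjusted p were by DESeq2. Over all 7947 genes edgeR called 0% lower and 0.0126% (1 gene) higher, and 2.78% were at an unadjusted p under 0.05. *Top2a* was at 8.29, 10.98, 18.3 and 11.2 CPM against 2.72, 4.81, 0 and 0 CPM, the only gene of the 15 whose groups did not overlap (1.17% of all genes were apart higher and 1.4% lower), although the limit of the 0 in control replicate C is 11.5 CPM, above 3 of the stimulated values. Its log2 fold change was 2.42 (SE 1.19, unadjusted p = 0.0555, adjusted p = 0.999). *Cenpa* and *Spc25* were at -1.60 (SE 0.78, unadjusted p = 0.0555, adjusted p = 0.999) and -1.77 (SE 1.40, unadjusted p = 0.222, adjusted p = 0.999), both overlapping.

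Some counts may belong to neighbours or copies. In GENCODE M21, exons of *Foxm1* overlap *Tex52* and *Gm44596*, those of *Top2a* overlap *Gm23451* and those of *Ncapd2* overlap *Scarna10* and *Gm28967* on the same strand, and 13 of the 58 genes, among them *Ccna2*, *Cdc20*, *Plk1*, *Prc1*, *Nusap1* and *Kif20a*, overlap exons on the other strand. The processed copies *Ccnb1-ps* and *Ccnb2-ps* held 228 and 395 counts over the 40 libraries, against 18411 and 33627 for *Ccnb1* and *Ccnb2*, and *Sgo2b* held 0 against 5483 for *Sgo2a*.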

How the data were processed

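Polyadenylated RNA of about 200 sorted cells per library was sequenced in 40 libraries: 20 per cell type, with 4 per treatment. The values deposited by the authors are raw counts per Ensembl gene, from reads mapped with STAR. Not given in the sources used here are the version of STAR, how reads were counted, whether by strand, and on which build and annotation. The sample sheet deposited by the authors gives other, non-measured entries, the index primer and the plate index of each library. Symbols were taken from GENCODE M21 and found for 55141 of 55487 genes, and the 346 without a symbol held 0.133% of all counts.

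Counts were compared with edgeR 4.0.16 (filterByExpr on the groups, TMM scaling, robust quasi-likelihood fit and F test) in R 4.3.3, with only the libraries of a comparison in its fit. The cell types were compared in the 8 control libraries, and in the 32 stimulated libraries with treatment as a term; each stimulus was compared with the control within a cell type. P-values were adjusted by Benjamini-Hochberg over all genes tested, and calls needed an adjusted p up to 0.05 and a change above 1 on the log2 scale. The 6 genes that the filter removed in the control libraries were tested by exact permutation of the CPM, for which 4 against 4 allow no p under 0.0286. CPM use a single TMM scaling of the 40 libraries. A count of 0 was read as 3 counts, and ratios from 1 to 3 counts carry a 95% Clopper-Pearson interval. Totals of 6557 to 19717324 counts set this limit at 0.153 to 203 CPM. Both tools were tested on simulated data made from these counts. Other software was Python 3.11.15, numpy 2.4.6, pandas 2.3.3, scipy 1.17.1 and matplotlib 3.10.9.

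The alternatives were DESeq2 1.42.0, RLE scaling, no filter, a stricter filter, an adjusted p of at most 0.1, all 40 libraries in 1 fit, the replicate letter as a block, the index primer as a term, leaving out the 9 shallow libraries, adding the control libraries, and leaving out each library or replicate in turn. Splits by plate, leaving out the 2 libraries of lowest total, and sums with other scalings or without *Bub3* or *Mybl1* were chosen after seeing the data.

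The gene set and all lists were chosen with earlier results of these data known, and they were fixed together with the tests. The genes named are 14 anchors (*Cdk1*, *Ccnb1*, *Plk1*, *Aurkb*, *Cenpe*, *Ndc80*, *Bub1*, *Bub3*, *Cdc20*, *Top2a*, *Mki67*, *Kif11*, *Prc1* and *Foxm1*); per comparison up to 10 called genes of largest change whose groups do not overlap and the 3 of smallest p; between cell types the 5 of smallest change; the 5 of highest level per kb in each cell type; and up to 3 of smallest p in each other list. No test was made over the set as a whole, and replicate letters were not used as pairs.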

Additional observations from a re-analysis of the deposited data

Results flagged for a closer look

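In groups of 4 libraries, a library was listed where its gap to the nearest of the others as a share of the range exceeded Dixon's 95% critical value. This was met in 16 of 115 groups tested. In control ES-astrocytes, replicate A had the lowest summed level of the 58 genes (6908 CPM, the others 7810 to 7868 CPM) and the highest *Plk1* (136 CPM, the others 11.1 to 20.1 CPM), and replicate B the highest *Bub1* (88.7 CPM, the others 25.9 to 36.2 CPM).

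The other 13 were high values in ES-motor neurons. In 10 of them the other 3 libraries were at 0, where any count meets the rule: *Cdk1* (7.21 CPM), *Kif11* (1.23 CPM) and *Prc1* (3.12 CPM) in control replicate B; *Cdk1* (0.318 CPM), *Cenpe* (3.69 CPM) and *Ndc80* (1.21 CPM) in IL-1β and IL-6 replicate A; *Ndc80* (4.80 CPM) and *Prc1* (8.67 CPM) in TGF-β2 replicate B; and *Cdc20* (1.76 CPM) and *Mki67* (1.41 CPM) in C1Q and C5 replicate D. In the remaining 3 the others were not all at 0: *Cdc20* in control replicate C (23.1 CPM, the others up to 0.906 CPM), *Prc1* in C1Q and C5 replicate A (67.6 CPM, the others up to 5.29 CPM) and *Prc1* in IL-1β and IL-6 replicate D (13.4 CPM, the others up to 1.02 CPM). The causes were not tested.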

How the results depend on the processing

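No setting called any of the 58 genes higher in ES-motor neurons, or called any of them within a cell type. Between the cell types in the control libraries, 31 were called lower; the count was 7 with the replicate letter as a block, 17 without shallow libraries and 17 to 34 in leave-one-out fits. In the stimulated libraries 53 were called lower; the count was 33 within plate 1, a setting chosen after seeing the data, and 50 to 54 without replicate A, B, C or D. The settings without shallow libraries and within plate 1 hold fewer libraries, and the block uses degrees of freedom; beyond this the cause was not tested.

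Over all genes, 170 were called lower and 58 higher in the control libraries. DESeq2 gave 487 and 276, all 40 libraries in 1 fit 296 and 137, the block 28 and 13, fits without shallow libraries 62 and 19, and leave-one-out fits 54 to 265 and 18 to 136. An adjusted p of at most 0.1 gave 94 higher. In the stimulated libraries 1102 were lower and 434 higher: 720 lower without shallow libraries, 740 higher with no filter, 180 and 53 within plate 1, and 817 to 1117 and 295 to 402 in leave-one-out fits.

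Within ES-astrocytes edgeR called 0 genes for each stimulus. DESeq2 called 5 lower and 16 higher with IL-1α and TNF-α, 7 and 30 with C1Q and C5, 29 and 27 with IL-1β and IL-6, and 10 and 48 with TGF-β2. No filter gave 1 higher with IL-1α and TNF-α. All 40 libraries in 1 fit gave 1 lower and 1 higher with C1Q and C5 and 2 lower with IL-1β and IL-6.

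Within ES-motor neurons edgeR called 1 gene, higher with TGF-β2. With IL-1α and TNF-α, DESeq2 and no filter each gave 1 higher. With C1Q and C5, no filter gave 3 lower and leave-one-out fits 0 to 2 higher. With IL-1β and IL-6, DESeq2 gave 1 lower and no filter 1 higher. With TGF-β2, those lower were 2 at an adjusted p of at most 0.1, 11 by DESeq2, 2 with no filter, 1 with the block, 1 with the index primer as a term and 0 to 1 in leave-one-out fits. Those higher were 2, 8, 9, 3 and 2 in the same order, 0 without shallow libraries and 0 to 2 in leave-one-out fits. The cause was not tested.

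Signs changed for 4 genes, none of them called in the comparison as reported. *Espl1* between the cell types in the control libraries was at 0.25 with the block, 1.04 and 0.033 without astro_control replicate A and B, and 0.040 and 0.40 without mn_control replicate B and D (leave-one-out -1.31 to 1.04). *Ube2s* in the stimulated libraries was at 0.039 without replicate B (leave-one-out -2.19 to 0.039). *Bub3* in ES-motor neurons with IL-1α and TNF-α was at -0.13 with no filter, -0.11 with all 40 libraries in 1 fit, and -0.023, -0.078 and -0.0704 without stimulated replicate A, stimulated replicate B and control replicate C (leave-one-out -0.078 to 0.26). *Smc4* in ES-motor neurons with C1Q and C5 was at 0.39 without shallow libraries and 0.29 without control replicate C (leave-one-out -1.19 to 0.29). The cause was not tested.

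Of the other values, for named genes, lists and sums, 2336 kept their direction and side of the threshold or did not move, 146 no longer passed it, 32 newly passed it, and 152 counts or sums moved. A count was taken as moved where it changed by more than 1.5 times or to or from none. A summed level was taken as moved where its mean changed by the SD of its group or more. The index primer could not be fitted as a term between the cell types, since it differs with them, and the comparison of IL-1α and TNF-α in ES-motor neurons was not run without shallow libraries, which are all 4 of its stimulated libraries. In ES-motor neurons 6 to 39 of the 58 genes were detected per library.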
